A study of Mus musculus with 12 samples.

Results

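The 3 p53ERTAM tumors given vehicle were compared with the 3 empty-vector (EV) tumors given vehicle, chosen by sample title as 6 of the 12 bulk RNA-seq libraries of the series. All 12 tumors were 2153L, a genetically engineered mouse (GEM) mammary tumor labelled as triple-negative breast cancer (TNBC), transplanted to mammary fat pads of Balb/c females whose age is not given. The tested tumors had been transduced with p53ERTAM, named in the design text as tamoxifen inducible, and the EV tumors with the vector alone. The other 6 tumors carried the same vectors, 3 each, and received ORIN1001 at 150 mg/kg daily with docetaxel at 20 mg/kg weekly for 8 days (combo). The labels do not say whether any of these mice received tamoxifen, which promoter drives p53ERTAM, or whether the transduced cells were 1 clone. They also do not say that each library came from its own mouse, so the p-values measure the spread between these samples.

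p53, encoded by Trp53, is a transcription factor that binds DNA elements near genes for growth arrest, DNA repair and cell death, and it is held down by its own target Mdm2. It lowers genes of the cell cycle largely through Cdkn1a, whose product p21 blocks cyclin-dependent kinases and keeps repressor complexes on cell-cycle promoters. ERTAM is a mutated hormone-binding domain of the mouse estrogen receptor, which holds a fused protein inactive until tamoxifen or its metabolite binds. The 2153L line is known as one of a set of transplantable mammary tumors that arose in Trp53-null tissue. Counts per gene cannot tell reads of the ERTAM domain from reads of Esr1, the estrogen receptor gene it was made from.

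The receptors that define the TNBC label were read first. The progesterone receptor gene Pgr stayed at or below 0.729 CPM (read counts scaled to a common library total) in all 6 libraries. Erbb2, the HER2 gene, had 254, 233 and 250 CPM in p53ERTAM tumors (replicates 1, 2 and 3, the order used throughout), against 309, 318 and 322 CPM in EV tumors (log2 fold change -0.36 ± 0.09 (SE), adjusted p = 0.00621 by the edgeR quasi-likelihood test). Esr1 had 29.3, 33.1 and 29.3 CPM in p53ERTAM tumors, against 12.4, 9.56 and 5.31 CPM in EV tumors. Esr1 reads were therefore present in every library, and the groups did not overlap (1.74 ± 0.24, adjusted p = 0.000185). Trp53 itself had 48.4, 49.3 and 56.7 CPM in p53ERTAM tumors, against 41.9, 55 and 40.2 CPM in EV tumors. Those ranges overlap, and the difference of 0.17 ± 0.14 did not pass (adjusted p = 0.356). The gene lies at chr11:69580359-69591873 (GRCm38), and reads from the introduced p53 cannot be separated from those of the mouse gene in these counts.

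Of 17970 genes tested, 3217 were higher in p53ERTAM tumors (17.9%) and 3567 were lower (19.8%), or 37.8% in either direction, at an adjusted p below 0.05. Among them 2024 were higher and 1024 lower by 2-fold or more. Totals were 13484873 to 19461986 counts in p53ERTAM libraries and 20431888 to 23188928 in EV libraries. Protein-coding genes took 86.7 to 94.0% of counts in p53ERTAM libraries and 94.9 to 95.8% in EV libraries, with p53ERTAM replicate 2 lowest on both measures. Without p53ERTAM replicate 2 the test called 2209 genes higher (11.9%) and 2712 lower (14.6%) of 18545. EV replicate 3 also stood apart from its group in several of the genes with the largest folds. In the gene lists that follow, a share of called members is to be read against 17.9% higher and 19.8% lower over all genes tested. Among 13911 protein-coding genes 15.7% were higher and 24.5% lower. With these split by mean CPM into 3 bins of 4637 genes, the lower share was 9.29%, 29.8% and 34.4% in the lowest, middle and highest bin. Shares of members called lower that are near these values are no result about a list.

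**Figure D1:**
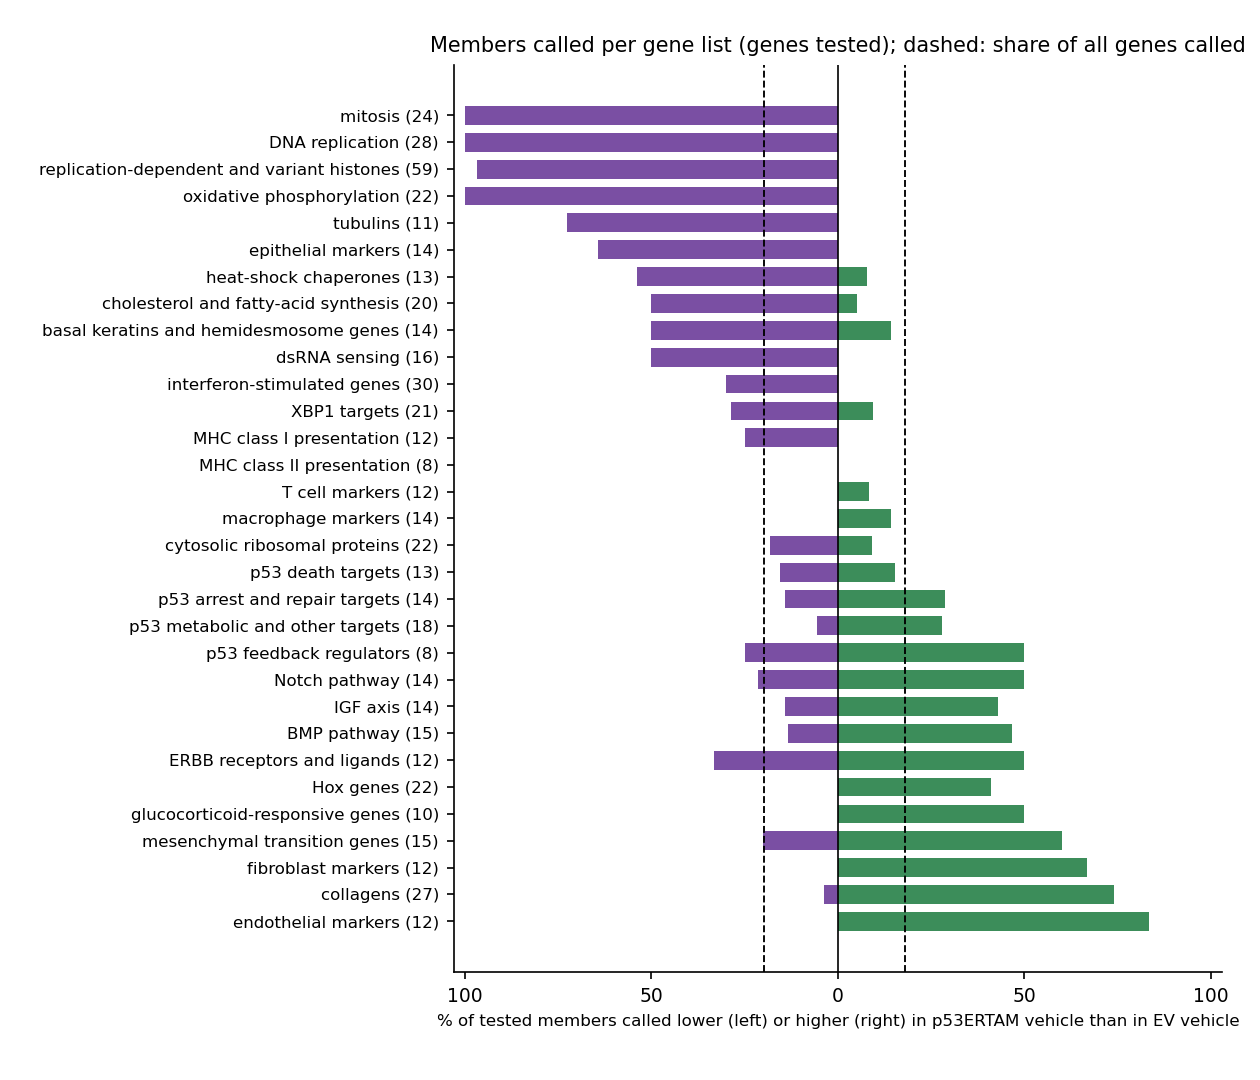
Percent of the tested members of 31 gene lists called higher (right, green) or lower (left, purple) in p53ERTAM vehicle tumors against EV vehicle tumors, by the edgeR quasi-likelihood test at an adjusted p below 0.05. Dashed lines mark the 17.9% higher and 19.8% lower among all 17970 genes tested. The histone, DNA replication, mitosis and oxidative phosphorylation lists reach furthest left, and of those drawn the endothelial and collagen lists furthest right. The nuclear noncoding RNAs, 10 of 13 higher, are not drawn.

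Genes known as direct p53 targets moved in both directions. With all libraries kept, more members were called higher than lower in the arrest and repair, feedback and metabolic lists. Among all protein-coding genes tested 15.7% were higher and 24.5% lower. Cdkn1a (chr17:29090979-29100722) had 92.2, 158 and 117 CPM in p53ERTAM tumors, against 26.2, 45.2 and 26.8 CPM in EV tumors. Every p53ERTAM tumor was above every EV tumor, and the log2 fold change was 1.90 ± 0.33 (adjusted p = 0.00107). Gadd45a, which binds repair and stress-kinase proteins, had 59.1, 74.1 and 60 CPM in p53ERTAM tumors and 17.9, 15.5 and 19 CPM in EV tumors, a change of 1.88 ± 0.21 (adjusted p = 6.21e-05). Of the 14 arrest and repair targets that passed the filter on low counts (15 listed), 4 rose and 2 fell. The pair that fell was Gtse1 (-0.97 ± 0.15), a mitotic protein that moves p53 out of the nucleus, and Sfn (-0.78 ± 0.18), the 14-3-3 sigma gene, which is also abundant in epithelium.

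The promoter of Cdkn1a was the only 1 among 42 members of the p53 lists with a RefSeq window (250 bases before to 50 after the start) that held a full p53 site. The site was searched as a pair of 10-base elements matching the consensus by its name, up to 13 bases apart, on both strands. It occurs in 0.0740% of the windows of 27025 RefSeq genes. The 100 bases before the RefSeq start of Cdkn1a (GRCm38.p6, plus strand, chr17:29090879-29090978) are shown because this gene gave the largest change among the arrest targets. Capitals mark the 2 elements that the search paired, which are 12 bases apart. The 10 bases right after the second, tgacatgttc, miss the consensus by their first base alone, so the search did not take them. Which of these bases p53 binds was not tested.
Cdkn1a: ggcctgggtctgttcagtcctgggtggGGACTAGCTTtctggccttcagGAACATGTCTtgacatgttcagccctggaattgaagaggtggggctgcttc

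The feedback regulators of p53 gave 4 higher and 2 lower of 8. Mdm2, the ubiquitin ligase that degrades p53, had 83.2, 109 and 85 CPM in p53ERTAM tumors, against 60.8, 71.2 and 70.1 CPM in EV tumors. All 3 p53ERTAM values lay above the EV values, with a log2 fold change of 0.46 ± 0.13 (adjusted p = 0.0157). That call did not hold without EV replicate 1 (0.40, adjusted p = 0.0519) or without p53ERTAM replicate 2 (0.32, adjusted p = 0.069). Zmat3, an RNA-binding protein that restrains growth, rose by 0.51 ± 0.13 (adjusted p = 0.0102), and its call held with each library left out. Pml, a nuclear-body protein that activates p53, fell by 0.67 on the log2 scale (adjusted p = 0.000968). The count of feedback genes called higher was 1 without EV replicate 1 and 2 without EV replicate 3, p53ERTAM replicate 1 or p53ERTAM replicate 2. The count called lower was 1 without EV replicate 1 or p53ERTAM replicate 1.

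Among 13 death targets 2 rose and 2 fell, counts near or below the protein-coding shares of 15.7% higher and 24.5% lower. Bbc3, which encodes the BH3-only protein PUMA, had 10.5, 12.3 and 8.86 CPM in p53ERTAM tumors and 7.2, 6.1 and 5.16 CPM in EV tumors. The groups were separate but close, at 0.77 ± 0.21 (adjusted p = 0.0103). Perp, a desmosome protein of epithelia, had 90.2, 72.2 and 98.3 CPM in p53ERTAM tumors, against 133, 191 and 189 CPM in EV tumors. It moved opposite to Bbc3, by -0.97 ± 0.16 (adjusted p = 0.000545). The count of death targets called lower was 1 without EV replicate 2, EV replicate 3 or p53ERTAM replicate 3. In the BCL2 family as a whole, 6 of 15 rose and 2 fell. Bcl2l1, an anti-apoptotic member, had 192, 211 and 165 CPM in p53ERTAM tumors and 94.1, 78 and 86.6 CPM in EV tumors (1.13 ± 0.11, adjusted p = 3.25e-05), and the anti-apoptotic Mcl1 rose by 0.36 ± 0.09. The pro-apoptotic Bad (-1.08 ± 0.19) and Bak1 (-0.77 ± 0.17) fell.

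Of 18 metabolic and other p53 targets, 5 rose and 1 fell, with 3 called higher without p53ERTAM replicate 2 and 2 lower without p53ERTAM replicate 1. Cpt1c, a carnitine palmitoyltransferase family member, had 12, 14.5 and 13.3 CPM in p53ERTAM tumors, against 3.26, 3.82 and 2.24 CPM in EV tumors (2.09 ± 0.25, adjusted p = 0.000101). Thbs1, the matrix glycoprotein thrombospondin 1, had 1339, 1557 and 1885 CPM in p53ERTAM tumors and 864, 677 and 486 CPM in EV tumors (1.24 ± 0.18, adjusted p = 0.000327). Both genes were higher in all 3 p53ERTAM tumors than in any EV tumor. Eda2r, an ectodysplasin receptor, also rose (1.76 ± 0.39), while the receptor kinase Epha2 fell (-0.68 ± 0.17). Among other kinase inhibitors, Cdkn2b, the gene of p15, rose by 1.05 ± 0.18 and Cdkn2c, the gene of p18, fell by 0.99 on the log2 scale. Trp63, the p53 relative that marks basal epithelium, had 40.3, 23.2 and 40.9 CPM in p53ERTAM tumors and 87.1, 117 and 129 CPM in EV tumors, a change of -1.67 ± 0.23 (adjusted p = 0.00022).

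**Figure D2:**
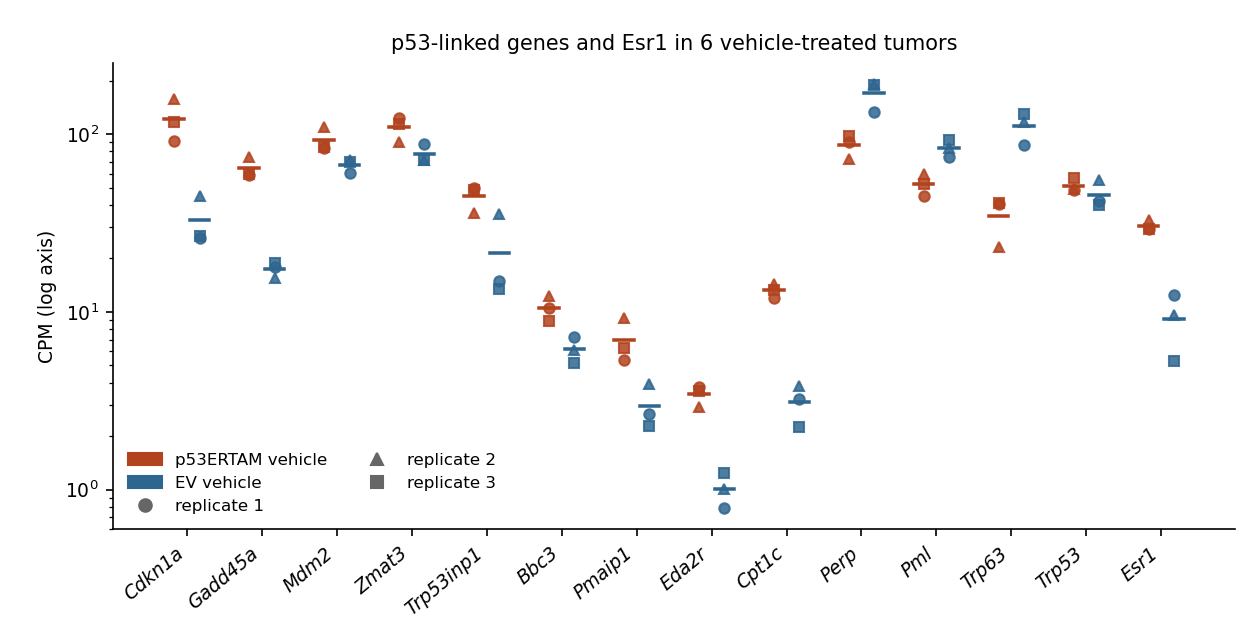
CPM on a log axis for 14 genes in each library, namely Esr1 and genes linked to p53. The 3 p53ERTAM vehicle tumors are at left (red) and the 3 EV vehicle tumors at right (blue) of each pair. The marker shape gives the replicate. Cdkn1a, Gadd45a and Cpt1c separate with p53ERTAM above EV, Perp and Trp63 separate the other way, and the Trp53 values overlap.

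Genes of cell division were lower as a block. All 24 mitosis genes fell, with a median log2 fold change of -1.04 against 0.006 over all genes tested, and in each of the 24 the groups did not overlap, against 24.1% of all genes that lay lower without overlap. Nuf2, a kinetochore protein, had 16.6, 14.4 and 17.4 CPM in p53ERTAM tumors and 43.1, 39.7 and 51.8 CPM in EV tumors (-1.48 ± 0.14, adjusted p = 2.66e-05). Kif11, the motor that separates spindle poles, had 132, 78.7 and 114 CPM in p53ERTAM tumors and 273, 297 and 343 CPM in EV tumors (-1.49 ± 0.16, adjusted p = 4.14e-05). In both genes p53ERTAM replicate 2 was the lowest library, yet all p53ERTAM tumors were far below the EV tumors. Ccnb2, a mitotic cyclin, fell by 1.15 and its kinase Cdk1 by 1.09 on the log2 scale. Summed over the list, the level was 2077, 1445 and 1824 CPM in p53ERTAM tumors and 3218, 3614 and 4051 CPM in EV tumors.

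DNA replication genes gave the same picture, with all 28 lower, a median of -1.08 and 27 without overlap. Pola1, the catalytic subunit of DNA polymerase alpha, had 47.5, 36.7 and 40.2 CPM in p53ERTAM tumors and 89.8, 107 and 118 CPM in EV tumors (-1.34 ± 0.14, adjusted p = 4.01e-05). Mcm6, a subunit of the replicative helicase, had 129, 71.2 and 108 CPM in p53ERTAM tumors and 275, 290 and 291 CPM in EV tumors (-1.47 ± 0.16, adjusted p = 6.33e-05). Mcm2, of the same helicase, fell by 1.18 on the log2 scale, and Tk1, the thymidine kinase of S phase, by 0.99. No member of either list lay higher in p53ERTAM tumors.

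Histone genes, which are transcribed mainly in S phase, were listed only after the data had been seen. Of 59 tested, 57 fell and none rose, with a median of -1.40. Hist1h3f, a histone H3 gene, had 54.3, 36.4 and 52.9 CPM in p53ERTAM tumors and 131, 138 and 112 CPM in EV tumors (-1.40 ± 0.15, adjusted p = 5.13e-05). Hist1h2bk, a histone H2B gene, had 22.5, 11.3 and 26.3 CPM in p53ERTAM tumors against 87.3, 112 and 95.8 CPM in EV tumors (-2.28 ± 0.25, adjusted p = 7.34e-05). Every p53ERTAM tumor was lower in both. Hist1h3g and Hist1h2bl fell by 1.95 and 1.65 on the log2 scale. Replication-dependent histone genes are near-identical copies, so reads may be split among them, and the single-gene values are less certain than the summed level of 2429, 1470.3 and 2523 CPM in p53ERTAM tumors and 5548, 6247 and 5888 CPM in EV tumors. With each library left out in turn, 53 to 56 histone genes fell.

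Promoters of mitotic genes often hold the cell-cycle homology region (CHR), spelled TTTGAA here (TTCAAA on the other strand), which is bound by repressor complexes in resting cells. A CHR stood in 15 of 21 mitosis promoters with a window (71.4%), against 20.2% of all RefSeq promoters and 14.6% of those of the tested genes. The windows nearest the start (80 bases, GRCm38.p6) are shown for the 4 mitosis genes of smallest p whose CHR lies there, at chr19:37376302-37376381 (plus strand) for Kif11, chr10:69352913-69352992 (minus) for Cdk1, chr11:99024190-99024269 (minus) for Top2a and chr4:118437344-118437423 (minus) for Cdc20. Capitals mark the CHR, read 5′ to 3′ on the gene's strand.
Kif11: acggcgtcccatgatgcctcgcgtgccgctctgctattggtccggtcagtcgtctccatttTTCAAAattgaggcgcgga
Cdk1: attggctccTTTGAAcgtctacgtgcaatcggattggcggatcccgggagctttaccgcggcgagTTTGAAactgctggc
Top2a: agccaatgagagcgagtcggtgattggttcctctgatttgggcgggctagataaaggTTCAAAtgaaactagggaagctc
Cdc20: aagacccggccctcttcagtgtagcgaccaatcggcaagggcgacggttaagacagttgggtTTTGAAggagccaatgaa

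Top2a, the topoisomerase that untangles chromosomes, fell by 1.16 on the log2 scale (503, 345 and 492 CPM in p53ERTAM tumors, against 830, 1000 and 1156 CPM in EV tumors) and Cdc20, an activator of the anaphase-promoting complex, by 1.07 (31.8, 21.9 and 33.9 CPM in p53ERTAM tumors, against 54.5, 61.4 and 68.7 CPM in EV tumors). Promoters of replication genes are known for E2F elements. Searched as TTTCCCGC or TTTGGCGC on both strands, they stood in 10 of 22 replication promoters (45.5%), against 1.80% of all RefSeq promoters and 3.20% of those of the tested genes. The 160 bases before the start are shown for 4 of these, chosen by smallest p, at chrX:93632156-93632315 (minus) for Pola1, chr1:128359706-128359865 (minus) for Mcm6, chr8:75109349-75109508 (plus) for Mcm5 and chr11:98907991-98908150 (plus) for Cdc6. Capitals mark the E2F element. A match describes the letters of these windows and does not show binding.
Pola1: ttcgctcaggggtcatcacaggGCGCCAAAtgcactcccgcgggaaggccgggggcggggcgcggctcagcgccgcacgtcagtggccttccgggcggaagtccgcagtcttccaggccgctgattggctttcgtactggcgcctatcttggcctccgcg
Mcm6: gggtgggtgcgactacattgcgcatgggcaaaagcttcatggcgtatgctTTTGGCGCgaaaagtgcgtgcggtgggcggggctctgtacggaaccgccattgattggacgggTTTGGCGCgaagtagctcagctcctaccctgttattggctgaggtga
Mcm5: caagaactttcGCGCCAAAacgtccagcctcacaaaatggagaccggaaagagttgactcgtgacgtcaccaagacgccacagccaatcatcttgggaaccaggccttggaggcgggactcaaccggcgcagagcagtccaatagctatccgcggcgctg
Cdc6: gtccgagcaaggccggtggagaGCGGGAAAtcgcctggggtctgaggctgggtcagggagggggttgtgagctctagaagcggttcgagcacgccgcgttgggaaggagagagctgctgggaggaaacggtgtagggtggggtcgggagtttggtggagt

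Mcm5, of the replicative helicase, had 63.9, 49.6 and 54.8 CPM in p53ERTAM tumors and 116, 157 and 196 CPM in EV tumors (-1.48 ± 0.17, adjusted p = 7.34e-05). Cdc6, which loads that helicase, fell by 1.03 on the log2 scale. The groups were separate in both genes.

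All 22 nuclear genes of oxidative phosphorylation, the mitochondrial making of ATP, fell, with a median of -0.92 and no overlap in any. Cox5b, a cytochrome c oxidase subunit, had 30.8, 21.3 and 31.5 CPM in p53ERTAM tumors and 84.7, 65 and 83 CPM in EV tumors (-1.47 ± 0.17, adjusted p = 7.58e-05). Atp5b, the catalytic subunit of ATP synthase, had 629, 422 and 757 CPM in p53ERTAM tumors and 1181, 1280 and 1455 CPM in EV tumors (-1.12 ± 0.17, adjusted p = 0.00038). Both were lowest in p53ERTAM replicate 2. Ndufb8 and Ndufb5, of complex I, fell by 1.01 and 0.88 on the log2 scale. Of 20 glycolysis and hypoxia genes 1 rose and 2 fell, and with each library left out in turn 0 to 3 rose and 1 to 4 fell.

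Tubulins, the subunits of microtubules, fell in 8 of 11 tested genes (median -0.88). Tubb6 had 52.2, 46.8 and 66.9 CPM in p53ERTAM tumors and 145, 161 and 131 CPM in EV tumors (-1.40 ± 0.16, adjusted p = 7.57e-05). The groups were separate, as they were for Tubg1 (-1.33 ± 0.16), which nucleates microtubules, and for Tubb4b (-1.12 ± 0.15). In cholesterol and fatty-acid synthesis 10 of 20 genes fell and 1 rose. Acly, which makes cytosolic acetyl-CoA, had 198, 138 and 218 CPM in p53ERTAM tumors and 373, 407 and 397 CPM in EV tumors (-1.09 ± 0.14, adjusted p = 0.000115), and Hmgcs1 and Fdft1 of the sterol pathway fell by 1.04 and 0.90. The member that rose was Srebf1 (0.51 ± 0.11), a transcription factor of lipid synthesis.

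Heat-shock chaperones gave 7 lower and 1 higher of 13, with none higher without EV replicate 1, EV replicate 2, p53ERTAM replicate 2 or p53ERTAM replicate 3. Hspa8, the constitutive HSP70, had 227, 256 and 328 CPM in p53ERTAM tumors against 420, 519 and 483 CPM in EV tumors (-0.81 ± 0.13, adjusted p = 0.00053), and the mitochondrial chaperone Hspd1 and the cytosolic Hsp90aa1 fell by 0.98 and 0.87 on the log2 scale. Of the 3 arms of the unfolded protein response, XBP1 targets and PERK and ATF4 targets had calls in both directions. Of 21 XBP1 targets 2 were higher and 6 lower, and of 17 PERK and ATF4 targets 6 were higher and 4 lower. The XBP1 count that was lower is near the protein-coding share. Of 10 ATF6 targets none was higher. In that list 4 were lower, or 1 without EV replicate 2 or p53ERTAM replicate 1 and 2 without EV replicate 3 or p53ERTAM replicate 2. Without p53ERTAM replicate 2, 2 of the PERK and ATF4 targets were called higher, and without EV replicate 3, 2 were called lower. Trib3, a pseudokinase induced by ATF4, had 90.7, 136 and 129 CPM in p53ERTAM tumors and 21.2, 25.1 and 29.6 CPM in EV tumors (2.23 ± 0.25, adjusted p = 7.8e-05). Psat1, a serine synthesis enzyme of the same list, went the other way, with 109, 64.5 and 87.6 CPM in p53ERTAM tumors and 255, 266 and 311 CPM in EV tumors (-1.67 ± 0.16, adjusted p = 2.86e-05). Shmt2, the mitochondrial serine hydroxymethyltransferase, fell by 0.96. Edem1, which clears misfolded proteins from the endoplasmic reticulum, rose by 0.52 ± 0.11 among the XBP1 targets, and Manf, a secreted factor of that compartment, fell by 0.94 ± 0.17 among the ATF6 targets.

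Matrix and stromal genes were higher. Of 27 collagen genes 20 rose and 1 fell, with a median of 1.44, or 1.22 without p53ERTAM replicate 2. Col1a1, a chain of fibrillar collagen I, had 774, 2288 and 748 CPM in p53ERTAM tumors and 231, 231 and 267 CPM in EV tumors (2.38 ± 0.39, adjusted p = 0.000835). p53ERTAM replicate 2 stood far above the other p53ERTAM tumors, and without it the change was 1.65 (adjusted p = 0.00051). Col6a3, of microfibrillar collagen VI, had 175, 274 and 257 CPM in p53ERTAM tumors and 71.1, 80.2 and 59.8 CPM in EV tumors (1.74 ± 0.23, adjusted p = 0.000196). Col9a2 of collagen IX (1.58 ± 0.13) and Col8a1 of collagen VIII (1.81 ± 0.25) rose as well. Collagens summed to 4479.5, 8142 and 5297 CPM in p53ERTAM tumors and 2715, 3174 and 3331 CPM in EV tumors.

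Fibroblast markers rose in 8 of 12 tested genes and endothelial markers in 10 of 12, with none lower in either list (1 fibroblast marker was lower without EV replicate 3 or p53ERTAM replicate 1). Pdgfrb, the platelet-derived growth factor receptor of fibroblasts and pericytes, had 65.6, 94.8 and 87.3 CPM in p53ERTAM tumors and 17.7, 25.3 and 18.1 CPM in EV tumors (2.02 ± 0.21, adjusted p = 3.9e-05). Cldn5, a tight-junction protein of vessels, had 9.52, 19.2 and 18.5 CPM in p53ERTAM tumors and 1.58, 2.46 and 1.98 CPM in EV tumors (2.96 ± 0.37, adjusted p = 0.000121). All p53ERTAM tumors stood above all EV tumors in both. The vessel genes Flt1 (1.33 ± 0.20), Tie1 (1.76 ± 0.27) and Vwf (2.40 ± 0.40) rose too, as did Thy1 (1.49 ± 0.24), which fibroblasts share with T cells. Fibroblast markers summed to 1555 to 3881 CPM in p53ERTAM tumors and 584 to 644 CPM in EV tumors. That list shares Col1a1 and other collagen genes with the collagen list, so the fibroblast and collagen sums are not separate readings. Endothelial markers summed to 245 to 351 CPM in p53ERTAM tumors and 87 to 161 CPM in EV tumors. In bulk tumors more cells of a type and more RNA per cell cannot be told apart, here or in any list that follows, and the part of stroma in the other changes was not tested.

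Of 11 pericyte and smooth-muscle genes 4 rose, or 7 without EV replicate 2. Myocd, a coactivator of smooth-muscle genes, had 2.43, 4.92 and 4.78 CPM in p53ERTAM tumors, against 0.0987, 0.0877 and 0.104 CPM in EV tumors (5.29 ± 0.56, adjusted p = 4.38e-05). It was close to 0 in every EV tumor. Those EV values lay below the 0.129 to 0.147 CPM that 3 counts make in these libraries, so the size of the fold is uncertain. Among mesenchymal transition genes 9 of 15 rose and 3 fell. Zeb1, a repressor of epithelial genes, had 33.4, 46.2 and 38.1 CPM in p53ERTAM tumors and 6.51, 6.84 and 7.03 CPM in EV tumors (2.53 ± 0.21, adjusted p = 1.11e-05), and Twist1, another such factor, rose by 2.19 ± 0.28. Cdh3, the P-cadherin of basal epithelium, had 11.4, 9.47 and 13.5 CPM in p53ERTAM tumors and 33.1, 42.8 and 42.9 CPM in EV tumors (-1.79 ± 0.19, adjusted p = 4.38e-05).

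**Figure D3:**
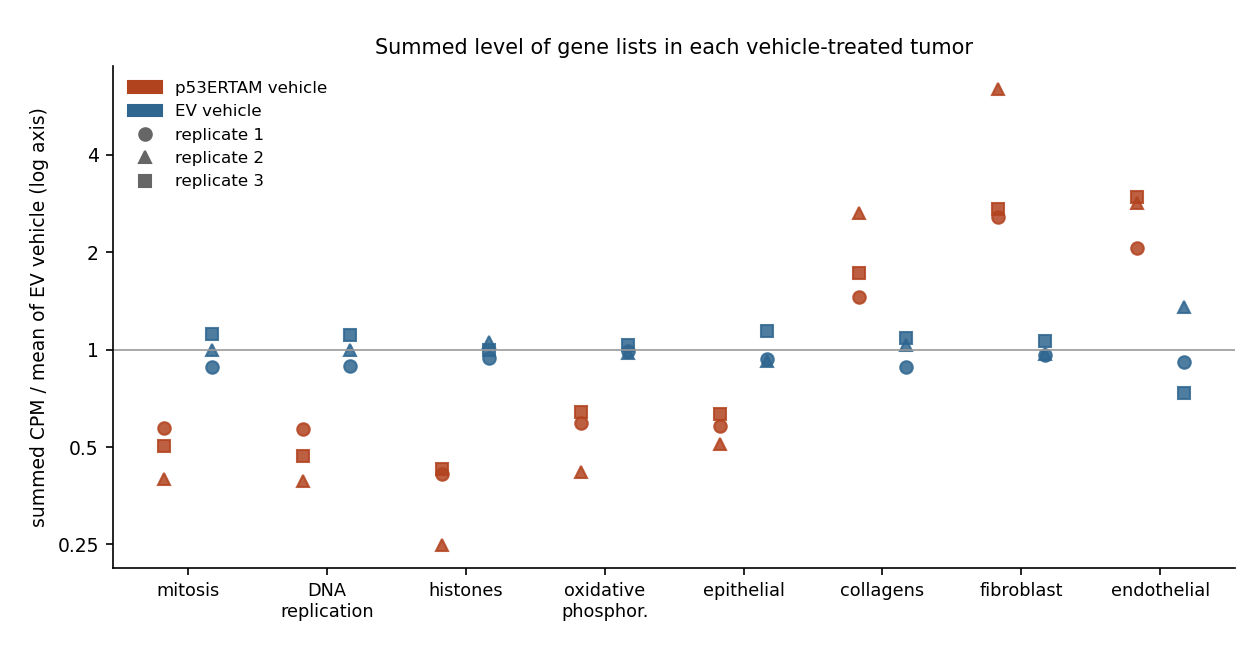
Summed CPM of 8 gene lists in each library relative to the EV vehicle mean (log axis), p53ERTAM vehicle at left and EV vehicle at right of each list. The fibroblast and collagen lists share members, among them Col1a1. Fibroblast, endothelial and collagen sums lie above the EV mean in all 3 p53ERTAM tumors, with p53ERTAM replicate 2 highest for fibroblast genes and collagens, and mitosis, replication, histone and oxidative phosphorylation sums lie below it.

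Epithelial markers were lower in 9 of 14 genes and higher in none (median -0.68). Krt7, a luminal keratin, had 65.9, 85.8 and 80.9 CPM in p53ERTAM tumors and 166, 179 and 165 CPM in EV tumors (-1.13 ± 0.12, adjusted p = 5.51e-05). Cdh1, which encodes E-cadherin, had 326, 253 and 302 CPM in p53ERTAM tumors and 510, 497 and 646 CPM in EV tumors (-0.91 ± 0.13, adjusted p = 0.000295). The groups were separate in both, and the splicing regulator Esrp2 and the claudin Cldn3 fell by 1.22 and 1.07 on the log2 scale. Epithelial markers still summed to 2245 to 2787 CPM in p53ERTAM tumors, against 4061 to 5017 CPM in EV tumors. Between the groups, the epithelial sum was lower where the fibroblast and endothelial sums were higher. Within the groups the order varied. EV replicate 3 had the highest epithelial and fibroblast sums of the EV tumors but the lowest endothelial sum. Of the p53ERTAM tumors, replicate 3 had the highest epithelial and endothelial sums. p53ERTAM replicate 2 had the lowest epithelial and the highest fibroblast sum.

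Basal keratin and hemidesmosome genes had the lowest median of the epithelial lists, at -1.37, with 7 of 14 lower and 2 higher. Their summed level did not separate the groups, with 2306, 2293 and 2789 CPM in p53ERTAM tumors and 2329, 2798 and 2821 CPM in EV tumors. Col17a1, a hemidesmosome collagen, had 21.4, 13.4 and 24.8 CPM in p53ERTAM tumors and 78.6, 147 and 175 CPM in EV tumors (-2.74 ± 0.36, adjusted p = 0.000216). Lama3, a chain of the laminin that hemidesmosomes bind, had 27.6, 21.4 and 32.4 CPM in p53ERTAM tumors and 67.8, 101 and 76.5 CPM in EV tumors (-1.59 ± 0.20, adjusted p = 0.000116). Every p53ERTAM value was below the EV values. Dst, a plakin with many isoforms, rose instead (1.94 ± 0.24), and the count called higher was 1 without EV replicate 1, EV replicate 3 or p53ERTAM replicate 3. Among mammary lineage factors, Elf5 of alveolar progenitors had 78, 64 and 85.3 CPM in p53ERTAM tumors and 207, 176 and 215 CPM in EV tumors (-1.39 ± 0.14, adjusted p = 3.66e-05). The related factor Ehf fell by 1.47 and the progenitor factor Sox9 by 0.90 on the log2 scale, while Stat5a, which carries prolactin signals, was among 3 that rose (0.92 ± 0.12).

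Ligands, receptors and regulators of growth-factor pathways split within each family. In the BMP pathway 7 of 15 tested genes rose and 2 fell. Bmp7, a ligand, had 7.39, 7.93 and 8.04 CPM in p53ERTAM tumors and 39.1, 47.4 and 41.3 CPM in EV tumors (-2.45 ± 0.18, adjusted p = 5.64e-06). Id3, a target of BMP signals, had 27.1, 27.9 and 22.7 CPM in p53ERTAM tumors and 3.26, 6.89 and 2.81 CPM in EV tumors (2.57 ± 0.29, adjusted p = 7.02e-05). The ligand was thus lower and this target higher in every p53ERTAM tumor; Id1 rose by 1.64 ± 0.23 and Id2 fell by 1.45 on the log2 scale. In the FGF family 6 of 16 rose and 2 fell. Fgfr2, the epithelial receptor, had 11.1, 8.22 and 11.7 CPM in p53ERTAM tumors and 42.8, 58.5 and 59.2 CPM in EV tumors (-2.37 ± 0.18, adjusted p = 7.54e-06). The feedback inhibitors Spry4 (1.54 ± 0.14) and Spry1 (1.22 ± 0.16) rose.

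ERBB receptors and ligands gave 6 higher and 4 lower of 12, with 3 higher without p53ERTAM replicate 2. Hbegf, a ligand of EGFR, had 105, 101 and 104 CPM in p53ERTAM tumors and 36.9, 27.8 and 14.4 CPM in EV tumors (1.97 ± 0.30, adjusted p = 0.00053). The receptor gene Egfr had 16.2, 13.2 and 17.4 CPM in p53ERTAM tumors and 34.4, 63 and 89.1 CPM in EV tumors (-1.99 ± 0.28, adjusted p = 0.000258). Receptor and ligand thus lay on opposite sides, and of other ligands Ereg rose (2.30 ± 0.44) and Btc fell (-1.57 ± 0.22). In the IGF axis 6 of 14 rose and 2 fell. Igf2, a fetal growth factor, had 10599, 9918 and 8350 CPM in p53ERTAM tumors and 18963, 24427 and 34601 CPM in EV tumors (-1.43 ± 0.20, adjusted p = 0.0002). All p53ERTAM tumors were below all EV tumors, while the receptor gene Igf1r rose by 0.81 ± 0.13 and the binding protein genes Igfbp2 and Igfbp7 by 2.37 ± 0.37 and 1.81 ± 0.28.

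Notch pathway genes gave 7 higher and 3 lower of 14. Notch4, a receptor of endothelium, had 27.8, 61.7 and 29.5 CPM in p53ERTAM tumors and 6.81, 8.42 and 7.29 CPM in EV tumors (2.40 ± 0.29, adjusted p = 0.00011), and Dll4, its vessel ligand, rose by 2.01 ± 0.28. Notch1, a receptor found also in epithelium, fell, with 381, 296 and 301 CPM in p53ERTAM tumors and 690, 688 and 499 CPM in EV tumors (-0.94 ± 0.13, adjusted p = 0.000234). The count of Notch genes called higher was 4 without EV replicate 1 or EV replicate 3, and that called lower was 1 without EV replicate 2 or p53ERTAM replicate 1. Of 22 tested Wnt ligands and regulators 6 rose and 4 fell, among them Wnt4, a ligand of the luminal epithelium, with 7.34, 4.04 and 5.71 CPM in p53ERTAM tumors and 26.6, 24.7 and 31.6 CPM in EV tumors (-2.27 ± 0.29, adjusted p = 0.000127). Hox genes, which pattern the body axis, rose in 9 of 22 and fell in none, with 5 higher without p53ERTAM replicate 2. Igf2bp1, a fetal RNA-binding protein, had 12.6, 11.4 and 11.4 CPM in p53ERTAM tumors and 2.56, 1.23 and 1.72 CPM in EV tumors (2.68 ± 0.42, adjusted p = 0.000471). Lin28b, an inhibitor of let-7 processing, had 2.73, 0.954 and 0.525 CPM in p53ERTAM tumors, most of it in replicate 1, and no counts in any EV tumor, and was at least 31.4-fold higher at a floor of 3 counts over the EV group.

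Hormone-linked genes were read beside Esr1. Of 14 estrogen-responsive genes 5 rose and 6 fell, with 3 higher without p53ERTAM replicate 2 or without p53ERTAM replicate 3. Prlr, the prolactin receptor, had 33.2, 19.2 and 22.1 CPM in p53ERTAM tumors and 111, 74.9 and 125 CPM in EV tumors (-2.05 ± 0.24, adjusted p = 9.76e-05), and the transcription factor Myb fell by 1.82 on the log2 scale. Glucocorticoid-responsive genes rose in 5 of 10 and fell in none, with 8 higher without EV replicate 3 and 3 without p53ERTAM replicate 3. Fkbp5, a receptor co-chaperone, had 306, 253 and 300 CPM in p53ERTAM tumors and 85.4, 88.8 and 109 CPM in EV tumors (1.60 ± 0.14, adjusted p = 1.21e-05). Per1, a clock gene, and Sgk1, a kinase, rose by 1.28 ± 0.13 and 1.22 ± 0.13, and all 3 genes were separate between the groups.

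Of 30 interferon-stimulated genes 9 fell and none rose (median -0.55), and the count of 9 is near the share of protein-coding genes that were lower. Ifitm3, which blocks virus entry, had 68.6, 51.6 and 108 CPM in p53ERTAM tumors and 213, 237 and 157 CPM in EV tumors (-1.41 ± 0.22, adjusted p = 0.000533). Ifit1, which binds foreign RNA ends, had 6.39, 9.84 and 8.39 CPM in p53ERTAM tumors and 24.1, 26.5 and 13.9 CPM in EV tumors (-1.39 ± 0.24, adjusted p = 0.000837). EV replicate 3 was the lowest EV tumor in both. The count of interferon-stimulated genes called lower was 18 without EV replicate 3, and 5 without EV replicate 2 or p53ERTAM replicate 1, and 1 was called higher without EV replicate 2.

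Sensors of double-stranded RNA (dsRNA) fell in 8 of 16 genes and rose in none, with 5 lower without p53ERTAM replicate 3. Tlr3, the endosomal sensor, had 78, 42.1 and 82.1 CPM in p53ERTAM tumors and 155, 137 and 114 CPM in EV tumors (adjusted p = 0.00288), and Ddx58, the cytosolic sensor RIG-I, fell by 0.56 on the log2 scale. Pyroptosis and necroptosis genes gave 3 higher and 5 lower of 16, with 3 lower without EV replicate 2 or p53ERTAM replicate 2. Nlrp3, an inflammasome sensor of that list, rose by 1.28 ± 0.28 (adjusted p = 0.00323). Of 12 genes of MHC class I presentation 3 fell, near the protein-coding share, or 1 (with 2 higher) without EV replicate 2, and 1 without p53ERTAM replicate 1 or p53ERTAM replicate 2. Erap1, which trims peptides for class I, had 94, 58.5 and 113 CPM in p53ERTAM tumors and 169, 187 and 187 CPM in EV tumors (-1.03 ± 0.18, adjusted p = 0.000763).

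Few immune cell markers passed the test. None of 8 MHC class II genes passed, although 5 were called higher without EV replicate 2. Macrophage markers rose in 2 of 14, or in 5 without EV replicate 1, and summed to 853 to 927 CPM in p53ERTAM tumors and 428 to 919 CPM in EV tumors. Of 12 T cell markers 1 rose, Thy1 (2 fell without EV replicate 1 and 3 without EV replicate 3), and the list summed to 62.5 to 79.1 CPM in p53ERTAM tumors and 23 to 91.6 CPM in EV tumors, so the ranges overlap. Of 3 B and plasma cell markers tested 2 were lower, but 0 in the 6 vehicle libraries alone, by the DESeq2 test or by voom. They summed to 5.58 to 13.9 CPM in p53ERTAM tumors and to 15.7, 205 and 6.25 CPM in EV tumors, so EV replicate 2 alone was high.

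The genes with the largest folds were mostly near 0 in 1 of the groups. Cytl1, a secreted cytokine-like protein of cartilage, had 662, 434 and 803 CPM in p53ERTAM tumors and 11, 6.58 and 4.69 CPM in EV tumors (6.41 ± 1.11, adjusted p = 0.00159). It was high in all p53ERTAM tumors. Gjc3, a connexin gene, had 4.06, 3.96 and 6.99 CPM in p53ERTAM tumors and no counts in EV tumors. At a floor of 3 counts over the EV group it was at least 104-fold higher. Card14, an activator of NF-kappa-B signalling, rose by 4.87 ± 0.42.

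Among the largest decreases, Foxi1, a forkhead factor of ion-transporting epithelia, had 1.09, 0.734 and 0.816 CPM in p53ERTAM tumors and 43.3, 29.8 and 9.9 CPM in EV tumors (-4.94 ± 0.55, adjusted p = 9.44e-05). Esrrg, an orphan nuclear receptor, had no counts in p53ERTAM tumors and 1.38, 1.4 and 51 CPM in EV tumors. It was at least 283-fold lower at a floor of 3 counts over the p53ERTAM group, a value set by EV replicate 3. Snph, a mitochondrial docking protein, was also highest in EV replicate 3 and changed by -6.24 ± 0.60, or by -5.48 without that tumor (adjusted p = 1.38e-05). Prkaa2, the alpha 2 subunit of AMP-activated kinase, had 1.09, 0.881 and 1.52 CPM in p53ERTAM tumors and 13.1, 17.9 and 61.4 CPM in EV tumors (-4.71 ± 0.66), or a change of -3.70 without EV replicate 3 (adjusted p = 0.00018).

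Ranked by p-value, the leading higher genes were tightly grouped. Limch1, an actin-binding protein, had 145, 179 and 159 CPM in p53ERTAM tumors and 30.7, 20.9 and 27.1 CPM in EV tumors (2.62 ± 0.16, adjusted p = 1.76e-06). Myo7a, an unconventional myosin, rose by 2.92 ± 0.18 and Scarf2, a scavenger receptor family member, by 3.16 ± 0.18, both with the same adjusted p. Ednra, the endothelin A receptor, had 25.8, 26.1 and 26.8 CPM in p53ERTAM tumors and 5.52, 5.48 and 4.06 CPM in EV tumors (2.38 ± 0.16, adjusted p = 3.61e-06). Of the lower genes, Slco1a5, an organic anion transporter, had 4.26, 4.18 and 2.91 CPM in p53ERTAM tumors and 45.3, 49 and 51.1 CPM in EV tumors (-3.68 ± 0.26, adjusted p = 4.57e-06). Gk, glycerol kinase, had 68.8, 50.2 and 62.5 CPM in p53ERTAM tumors and 250, 199 and 204 CPM in EV tumors (-1.84 ± 0.13, adjusted p = 5.64e-06). In each of these the groups lay far apart.

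Lower genes were not spread evenly over the chromosomes. Of 454 protein-coding genes tested on X, 50.9% were lower and 35 were higher, with a median log2 fold change of -0.56, and on chromosome 19 46.5% of 493 were lower, with a median of -0.51. On the other chromosomes the medians were -0.17 to 0.10, and 24.5% of all 13911 protein-coding genes were lower. Windows of 10 Mb were read where at least 10 protein-coding genes were tested, which left out parts of X. Of these, all 13 on X and 6 of 7 on chromosome 19 had a median below -0.4, against 2 of 238 elsewhere. Of the 2 elsewhere, that on chromosome 13 (20 to 30 Mb) had a median of -1.27, or -0.10 without its 47 histone genes. The median gene on X stood at -0.62, -0.79 and -0.58 (log2 of CPM plus 0.5, relative to the EV mean) in p53ERTAM tumors and at 0.04, 0.02 and -0.07 in EV tumors. On chromosome 19 it stood at -0.47, -0.57 and -0.51 in p53ERTAM tumors. EV combo tumors were also low on chromosome 19, at -0.54, -0.25 and -0.71 relative to the EV vehicle mean. p53ERTAM combo tumors stood there at -0.57, -0.54 and -0.52. For p53ERTAM combo against EV combo the median log2 fold change was -0.008 on chromosome 19 and -0.32 on X.

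Among the genes of smallest p that fell, Gk, Aifm1, Rbbp7, Kif4 and Dlg3 lie on X. Aifm1, a mitochondrial flavoprotein that acts in cell death, had 20.9, 16.8 and 22.2 CPM in p53ERTAM tumors and 63.2, 60.8 and 65 CPM in EV tumors (-1.65 ± 0.13, adjusted p = 8.38e-06). Rbbp7, a histone-binding protein, had 128, 95.6 and 122 CPM in p53ERTAM tumors and 305, 328 and 340 CPM in EV tumors (-1.49 ± 0.11, adjusted p = 5.64e-06). Pola1 lies on X as well, and Kif11, Ndufb8, Bad and Col17a1 lie on chromosome 19, so the position is shared by some genes of the lists above. Eda2r, also on X, rose, and Xist, the RNA that silences an X chromosome, rose by 1.46 ± 0.35 (adjusted p = 0.00709), with 2625, 4820 and 1695 CPM in p53ERTAM tumors and 1573, 920 and 826 CPM in EV tumors. The part of chromosome position in the list results was not tested.

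**Figure D4:**
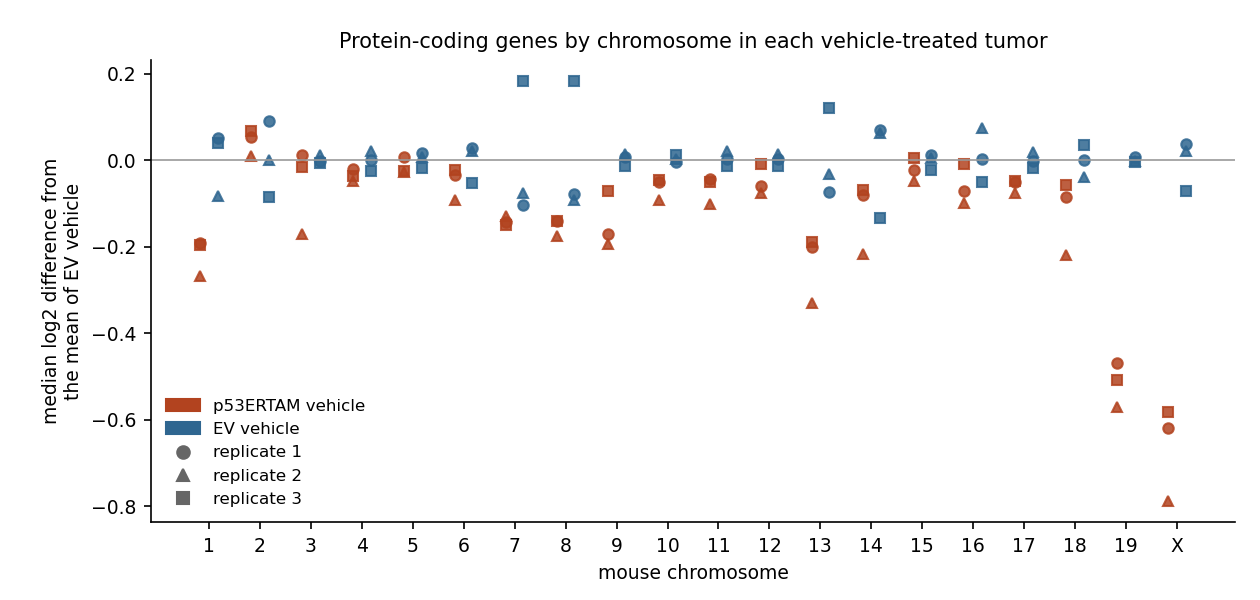
Median log2 difference of protein-coding genes from the EV vehicle mean, by chromosome, for each p53ERTAM vehicle library (red) and each EV vehicle library (blue). X and chromosome 19 lie below -0.4 in all 3 p53ERTAM tumors, and EV replicate 3 departs upward on chromosomes 7, 8 and 13.

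Several classes of noncoding transcripts took a larger share of counts in p53ERTAM libraries. The class TEC, gene models that await experimental evidence, held 0.427 to 0.890% of counts in p53ERTAM libraries and 0.185 to 0.333% in EV libraries. Of 1146 TEC genes tested 616 were higher, with a median of 1.41, or 1.12 without p53ERTAM replicate 2. Sense-intronic transcripts had a median of 1.31 over 181 genes, 97 of them higher. Of 13 nuclear noncoding RNAs 10 rose and 1 fell, or 6 rose and none fell without p53ERTAM replicate 2. The count that fell was 0 without EV replicate 1 and 2 without p53ERTAM replicate 3. Gm42418, known to overlap a ribosomal RNA repeat, had 6333, 14946 and 3674 CPM in p53ERTAM tumors and 1999, 1249 and 1831 CPM in EV tumors (2.30 ± 0.41, adjusted p = 0.00127), and its change was 1.57 without p53ERTAM replicate 2 (adjusted p = 0.00145). The ordering of p53ERTAM libraries, with replicate 2 highest and replicate 3 lowest, was the same for TEC shares, Gm42418 and Xist, and the part of RNA composition in the other results was not tested.

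The same vector contrast can be set beside that under combo (p53ERTAM combo against EV combo), which uses 6 other libraries but the same fit. Under combo 22.1% of genes were higher and 22% lower, 44.1% in all. Of the 3217 genes higher under vehicle, 1164 were also higher under combo, 857 were lower and 1196 did not pass. Of the 3567 genes lower under vehicle, 1216 were also lower under combo, 364 were higher and 1987 did not pass. The difference between the contrasts passed its own test (interaction) in 6473 genes, or 36%. Protein-coding genes took 94.5 to 95.3% of counts in p53ERTAM combo libraries and 80.9 to 81.7% in EV combo libraries, and the part of this in the combo values was not tested.

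Cell-division genes were lower in p53ERTAM tumors under both treatments. Mitosis genes had a median of -0.96 under combo with 23 of 24 lower, and the interaction passed in 4. Replication genes had -0.65 with 20 of 28 lower and an interaction in 8. Oxidative phosphorylation genes had 0.11 under combo, with 2 higher and 2 lower, and the interaction passed in 21 of 22. Interferon-stimulated genes were higher in 20 of 30 under combo, with a median of 1.03, and the interaction passed in 24. All 8 MHC class II genes were higher under combo, with an interaction in each. Collagens gave 2 higher and 7 lower of 27 under combo, with an interaction in 20.

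Among single genes, Cdkn1a changed by 2.42 under combo (interaction adjusted p = 0.39) and Nuf2 by -1.49 (interaction adjusted p = 0.97), against 1.90 and -1.48 under vehicle. Ccng1, a p53-induced cyclin, had 67, 62 and 75 CPM in p53ERTAM vehicle tumors and 57.4, 63.2 and 51.9 CPM in EV vehicle tumors, a difference of 0.24 that did not pass (adjusted p = 0.12), and it rose by 2.04 under combo (interaction adjusted p = 0.00015). Ifit1 fell by 1.39 under vehicle on the log2 scale and rose by 1.15 under combo. Cdh1 fell under vehicle and changed by 0.22 under combo, which did not pass (adjusted p = 0.19).

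**Figure D5:**
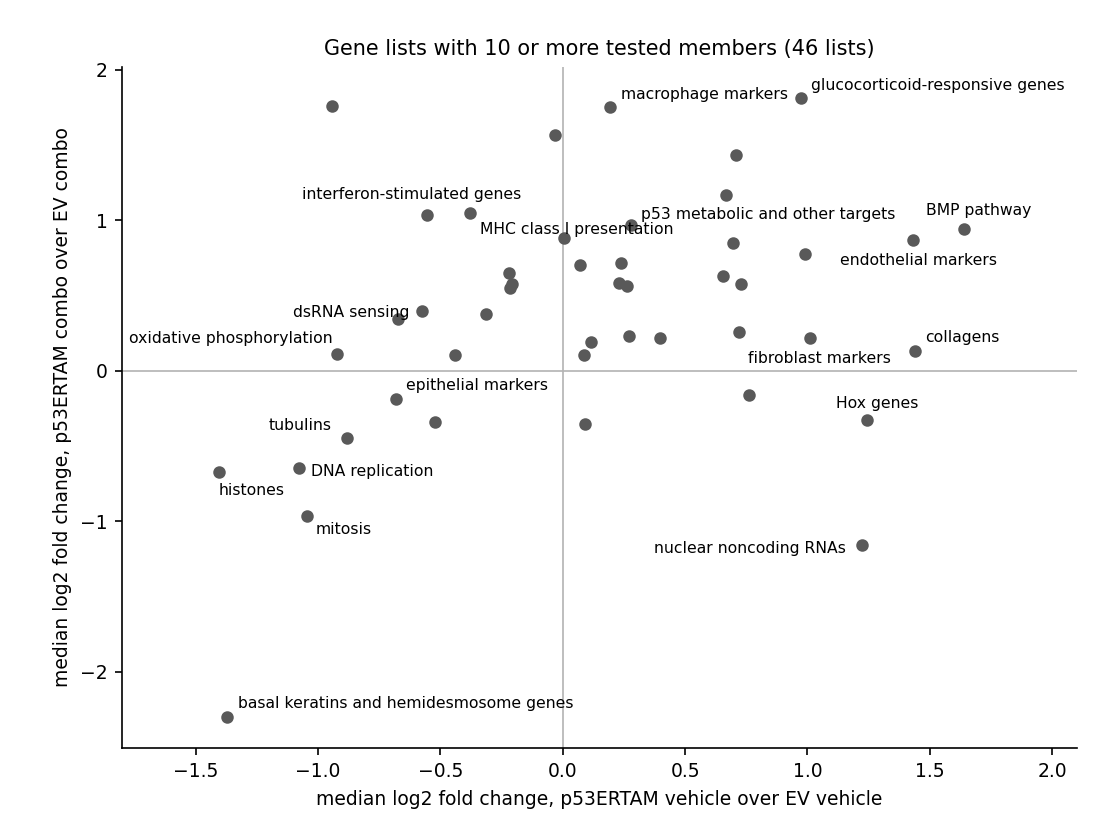
Median log2 fold change of 46 gene lists with at least 10 tested members, for p53ERTAM vehicle against EV vehicle (x axis) and p53ERTAM combo against EV combo (y axis). Mitosis and DNA replication lie low on both axes, and interferon-stimulated genes lie below 0 under vehicle and above 0 under combo.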

How the data were processed

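The authors deposited raw counts per gene in the featureCounts layout, per the file headers, with no normalization. Total RNA, purified with a Direct-zol kit, was depleted of ribosomal RNA for stranded libraries, per the labels' protocols. Per the submitters' processing notes the tools were FastQC, fastp, STAR and featureCounts and the build was GRCm38.p5, with no versions given; the strand setting of the counting is not given in the sources used here. Gene names and classes came from GENCODE M21 (52489 of 52636 identifiers matched). Gene coordinates came with the deposited counts, and promoters from RefSeq on GRCm38.p6. In R 4.3.3, edgeR 4.0.16 tested 17970 genes that passed filterByExpr, in 1 fit of 4 group means over 12 libraries with TMM scaling and a robust quasi-likelihood F-test. Benjamini-Hochberg adjustment ran over all genes tested, with a threshold of 0.05. CPM values are TMM-scaled, and a gene without counts in a group is limited by 3 counts over that group. That floor covers counting error only, and only if each count is 1 fragment. In the 6 vehicle libraries 68.4 to 71.7% of counts from 1 to 20 were even, against 50.7 to 52.1% of counts over 200. Where read pairs were counted as 2, the bounds are too strong, and this was not tested. The members and lists were chosen with earlier results of these data known. Named genes are Trp53, Esr1, Cdkn1a and Mdm2, the 12 largest folds and 10 smallest p-values per direction and up to 4 members of smallest p per list, from which the text takes some (certain genes are not reported here). Outside this rule, chosen after their values were seen, are Erbb2 and Pgr (marker check), Srebf1 (the exception of its list) and Top2a, Cdc20, Mcm5 and Cdc6 (promoters). Alternatives were DESeq2 1.42.0 (test and size factors), limma 3.58.1 (voom with quality weights), no filter, protein-coding genes alone, the 6 vehicle libraries alone, a replicate block and each library left out.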

Additional observations from a re-analysis of the deposited data

Results flagged for a closer look

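For 12 of the 135 genes whose change is given above, the vector effect under combo minus that under vehicle passed the edgeR interaction test at an adjusted p below 0.001, and 59 of the 135 passed below 0.05. These differences are between p53ERTAM combo against EV combo and p53ERTAM vehicle against EV vehicle, on the log2 scale. The vector effect was more positive under combo for Ifit1 by 2.54, Ifitm3 by 2.45, Ccng1 by 1.80, Erap1 by 1.50, Psat1 by 1.43, Ndufb8 by 1.27 and Cdh1 by 1.13. Of these, Ifit1, Ifitm3 and Erap1 act in antiviral defence or antigen presentation. The vector effect was more negative under combo for Gm42418 (-5.15), Xist (-4.85), Fgfr2 (-2.90), Bmp7 (-1.65) and Col9a2 (-1.33). Fgfr2 and Bmp7 were lower in p53ERTAM tumors under both treatments, further so under combo (-5.27 and -4.10), while Xist was higher under vehicle (1.46) and lower under combo (-3.39).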

How the results depend on the processing

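Each of the 135 changes kept its direction under every alternative run. The difference of Ccng1, which did not pass, passed among protein-coding genes alone (0.31, adjusted p = 0.0444). The call of Mdm2 was lost without EV replicate 1 or p53ERTAM replicate 2, and that of Esrrg in the 6 vehicle libraries alone and with no filter on low counts, and the DESeq2 test gave it no adjusted p. With each vehicle library left out in turn, 4921 to 6707 genes were called (2209 to 3224 higher, 2712 to 3483 lower), the lowest without p53ERTAM replicate 2. The DESeq2 test called 7409, voom with quality weights 5970, no filter 6057 and the 6 vehicle libraries alone 4541. The interaction test among protein-coding genes alone, scaled on them, called 4086 of 13929 genes (1962 higher), against 6473 of 17970 in the main fit. In that setting the median of chromosome 19 was -0.44 and that of X was -0.49. The log2 fold changes of all genes in both fits shifted by a median of 0.07, and the cause was not tested. With each library left out the median of X stayed between -0.61 and -0.51. Replicate numbers are shared across groups. The deviations of same-numbered tumors correlated at 0.0095, -0.077 and 0.030, within the range of differently numbered tumors (-0.17 to 0.15). No strong pairing was seen over all genes, but these values cannot exclude pairing that affects few genes. With the replicate block 2992 genes were higher and 3349 lower. The lower depth of p53ERTAM replicate 2 (13484873 counts) limits genes of few counts. For genes without counts in a group only bounds or CPM are given, while the fold of Myocd rests on few counts in EV tumors. B and plasma cell markers, described above, are left out of the counts that follow. Among the other lists whose counts are given above, those that moved by over 1.5 times under other settings were as follows. In the 6 vehicle libraries alone the calls moved for ERBB (3 higher), Hox (4 higher), Notch (4 higher, 1 lower), PERK and ATF4 (3 higher, 2 lower), XBP1 (3 lower), ATF6 (1 lower), dsRNA sensing (5 lower), interferon-stimulated (5 lower), MHC class I (1 lower), estrogen-responsive (3 higher), feedback (1 lower), death (1 lower), pyroptosis genes (1 higher, 3 lower), kinase inhibitors (1 lower), basal keratins (1 higher), heat-shock chaperones (0 higher), ribosomal proteins (1 higher, 1 lower), glycolysis genes (3 higher) and secretome genes (1 lower). Voom called 17 interferon-stimulated genes and 9 ribosomal protein genes lower, 3 estrogen-responsive genes, 3 PERK and ATF4 targets, 3 secretome genes, 2 AP-1 genes, 1 ribosomal protein gene and 1 death target higher, 1 death target and 1 secretome gene lower, 0 collagens lower and 0 chaperones and glycolysis genes higher. The replicate block called 3 PERK and ATF4 targets and 1 basal and 1 MHC class I gene higher and 1 secretome gene lower. DESeq2 size factors gave 1 secretome gene lower, and the DESeq2 test 3 glycolysis genes and 1 MHC class I gene higher and 1 T cell and 1 fibroblast marker lower. Protein-coding genes alone gave 4 death targets, 3 glycolysis genes and 1 MHC class I gene higher and 2 ribosomal protein genes and 1 secretome gene lower, and no nuclear noncoding RNA was tested there. With no filter 5 nuclear noncoding RNAs and 2 feedback regulators were higher, 0 glycolysis genes were higher, and 1 death target, 1 secretome gene and 1 fibroblast marker were lower.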

Other observations

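Counts of some lists not described above were as follows. Of 22 cytosolic ribosomal protein genes 2 were higher and 4 lower, and the count of lower calls ran from 0 (without EV replicate 2, p53ERTAM replicate 1 or p53ERTAM replicate 2) to 7 (without p53ERTAM replicate 3), with 1 or 2 higher. Of 18 AP-1 and immediate-early genes 4 were higher, or 2 without EV replicate 1, p53ERTAM replicate 2 or p53ERTAM replicate 3, and 1 was lower without EV replicate 3. Senescence secretome genes gave 5 higher and 2 lower of 16, with 2 higher without p53ERTAM replicate 2 and 1 lower without any library but p53ERTAM replicate 3. Of 16 matrix metalloproteinases and inhibitors 5 were higher and 1 lower. Of the 6 adipocyte and 2 skeletal muscle markers tested none was called, and 1 adipocyte marker was lower without EV replicate 2 or p53ERTAM replicate 3.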
